A study of Mus musculus with 7 samples.

Results

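The 10 genes described here mark amacrine and horizontal cells, the inhibitory interneurons of the retina, and their peaks were followed in a CUT&Tag time course of histone H3 lactylated at lysine 18 (H3K18La) in the developing mouse retina. They are Tfap2a, Tfap2b, Gad1, Gad2, Slc32a1, Slc6a9, Lhx1, Onecut1, Onecut2 and Prox1. Every peak that the deposited annotation gave to 1 of these symbols was taken, which was 46 of 108253 peaks. The peaks belonged to 9 of the 10 genes, since no peak carried the symbol Tfap2a, and 25400 gene symbols had a peak in all. Prox1 held 17 of the 46 peaks and Slc6a9 13, and the other 7 genes shared 16.

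Horizontal cells contact photoreceptor terminals in the outer retina, and amacrine cells shape the output of bipolar cells and ganglion cells in the inner retina. Most amacrine cells release either GABA or glycine. Both cell types leave the progenitor pool early in retinal development, and they are a small share of the cells of a mature retina, which consists mainly of rods. H3K18La is a histone mark derived from lactate and is found at active promoters and enhancers.

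All 7 libraries came from whole retinas of C57Bl/6J mice, dissociated into cells and profiled with an antibody against H3K18La. P4 and P10 had 2 libraries each and P28 had 3, the ages being postnatal days 4, 10 and 28, and the question was how the mark changes while the retina matures. The labels put P28 replicate 1 alone in batch 2, so values without it are values within batch 1. The methods call the replicates biological, but nothing states how animals were divided among libraries, and the p-values measure the spread between these libraries. In whole retina, fewer cells of a type and less mark per cell cannot be told apart.

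The libraries held between 199970 reads in peaks (P10 replicate 1) and 8274373 (P28 replicate 2), a 41.4-fold range. The signal is given as RPKM, the reads per kilobase of peak scaled to a normalized library size. Reads in peaks were 16.3% and 17.6% of that size at P4 and 36.1% and 52.1% at P10. At P28 they were 42.4%, 50.9% and 57.1%. This share thus differed with age, and scaling to the total signal in peaks, an alternative used below, evens it out. Reads per peak could be recovered from these values, and an age whose libraries all had 3 reads or fewer in a peak is called at the floor. Of the 46 peaks, 23 were at the floor at P4, 31 at P10 and 3 at P28, while among all peaks the shares were 61.7%, 61.3% and 8.78%. A fold against an age at the floor is computed against 3 reads per library, and none is given where both ages were at it.

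The sequences that follow come from regions of Slc6a9, Gad2 and Onecut1, and are read 5′ to 3′ on the plus strand of GRCm38. The first and second are the central 300 bases of the 2 peaks upstream of Slc6a9, of which the first had the highest mean RPKM of the 46 peaks at P10 and P28 and the second the largest log2(RPKM + 1) change from P4 to P28 (chr4:117830415-117830714 and chr4:117831950-117832249, both intergenic). The third is the part of the Gad2 promoter peak that lies before the annotated start of the gene (chr2:22621924-22622204). The fourth is the 250 bases before the RefSeq start of Onecut1 (chr9:74861671-74861920), whose promoter peak begins 122 bases after the annotated start. The Onecut1 stretch thus lies outside that peak, and no H3K18La value here covers it. Gad2 and Onecut1 are shown because their signal was high at P4, and neither promoter peak was called in the main fit. Capitals mark the GC box GGGCGG or the AP-2 letters GCCNNNGGC on either strand.
Slc6a9 upstream peak 1: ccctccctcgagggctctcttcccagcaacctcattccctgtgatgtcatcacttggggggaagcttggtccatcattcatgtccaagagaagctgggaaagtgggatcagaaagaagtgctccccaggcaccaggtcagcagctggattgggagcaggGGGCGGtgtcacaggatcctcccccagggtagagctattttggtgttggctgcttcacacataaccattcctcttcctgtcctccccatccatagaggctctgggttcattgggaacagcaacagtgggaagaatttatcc
Slc6a9 upstream peak 2: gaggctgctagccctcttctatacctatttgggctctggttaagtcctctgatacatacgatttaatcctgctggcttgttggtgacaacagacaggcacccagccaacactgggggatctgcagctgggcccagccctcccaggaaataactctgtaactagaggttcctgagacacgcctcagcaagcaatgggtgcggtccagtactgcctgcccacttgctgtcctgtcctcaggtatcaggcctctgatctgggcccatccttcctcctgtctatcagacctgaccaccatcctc
Gad2 promoter peak before the start: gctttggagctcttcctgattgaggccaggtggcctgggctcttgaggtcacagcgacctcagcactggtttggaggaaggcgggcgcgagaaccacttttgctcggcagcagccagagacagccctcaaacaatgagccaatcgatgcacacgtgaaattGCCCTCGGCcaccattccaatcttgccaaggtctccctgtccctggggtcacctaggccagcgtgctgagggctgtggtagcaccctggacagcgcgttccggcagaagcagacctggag
Onecut1 promoter: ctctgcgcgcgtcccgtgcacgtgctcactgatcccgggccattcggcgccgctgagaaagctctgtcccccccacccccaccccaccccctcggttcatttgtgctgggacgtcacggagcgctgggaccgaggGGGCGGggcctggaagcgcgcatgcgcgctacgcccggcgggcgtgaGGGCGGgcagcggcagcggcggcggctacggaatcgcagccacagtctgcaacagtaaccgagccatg
The upstream Slc6a9 windows had a GC content of 54.7% and 55.0% and held 2 and 3 CpG dinucleotides. The Gad2 stretch had a GC content of 60.5% with 12 CpG, and the Onecut1 promoter 71.6% with 31 CpG. The Onecut1 promoter held the GC box at 2 places, the first Slc6a9 window at 1, and the second Slc6a9 window held neither motif.

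Over all peaks of a gene, H3K18La rose at Slc6a9, the gene of the membrane transporter GlyT1 that takes glycine back up, and it fell at Onecut1, a transcription factor of horizontal cell development. The gene level is the mean RPKM over the summed width of a gene's peaks, a scale per length. At P4 the order of the mean levels was Onecut1 (4.12 RPKM), Gad2 (3.94), Onecut2 (2.94), Gad1 (2.34), Tfap2b (2.12), Slc32a1 (1.97), Slc6a9 (1.65), Prox1 (1.36) and Lhx1, which had no read. The ranges of the 2 P4 libraries overlapped between many neighbours in that order, and that of Gad2 (2.90 to 4.97) took in both Onecut1 libraries. Slc32a1 (4 reads) and Lhx1 were at the floor at P4, where 3 reads stood for 3.17 and 3.58 RPKM, so their places in that order were not resolved. At P28 the order was Slc6a9 (10.6 RPKM), Prox1 (2.96), Slc32a1 (2.09), Lhx1 (1.68), Gad2 (1.45), Onecut2 (1.43), Gad1 (1.28), Onecut1 (1.23) and Tfap2b (0.66). The lowest P28 library of Slc6a9 had 8.55 RPKM and the highest of Prox1 3.61, and from Prox1 to Onecut1 the ranges of neighbours overlapped. Onecut1 and Gad2 thus stood high at P4, where 1.94% and 2.37% of all gene symbols had a higher mean level, and low at P28, where 77.2% and 73.4% did. For Slc6a9 the shares ran the other way, 44.5% at P4, 7.26% at P10 and 6.28% at P28.

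**Figure D1:**
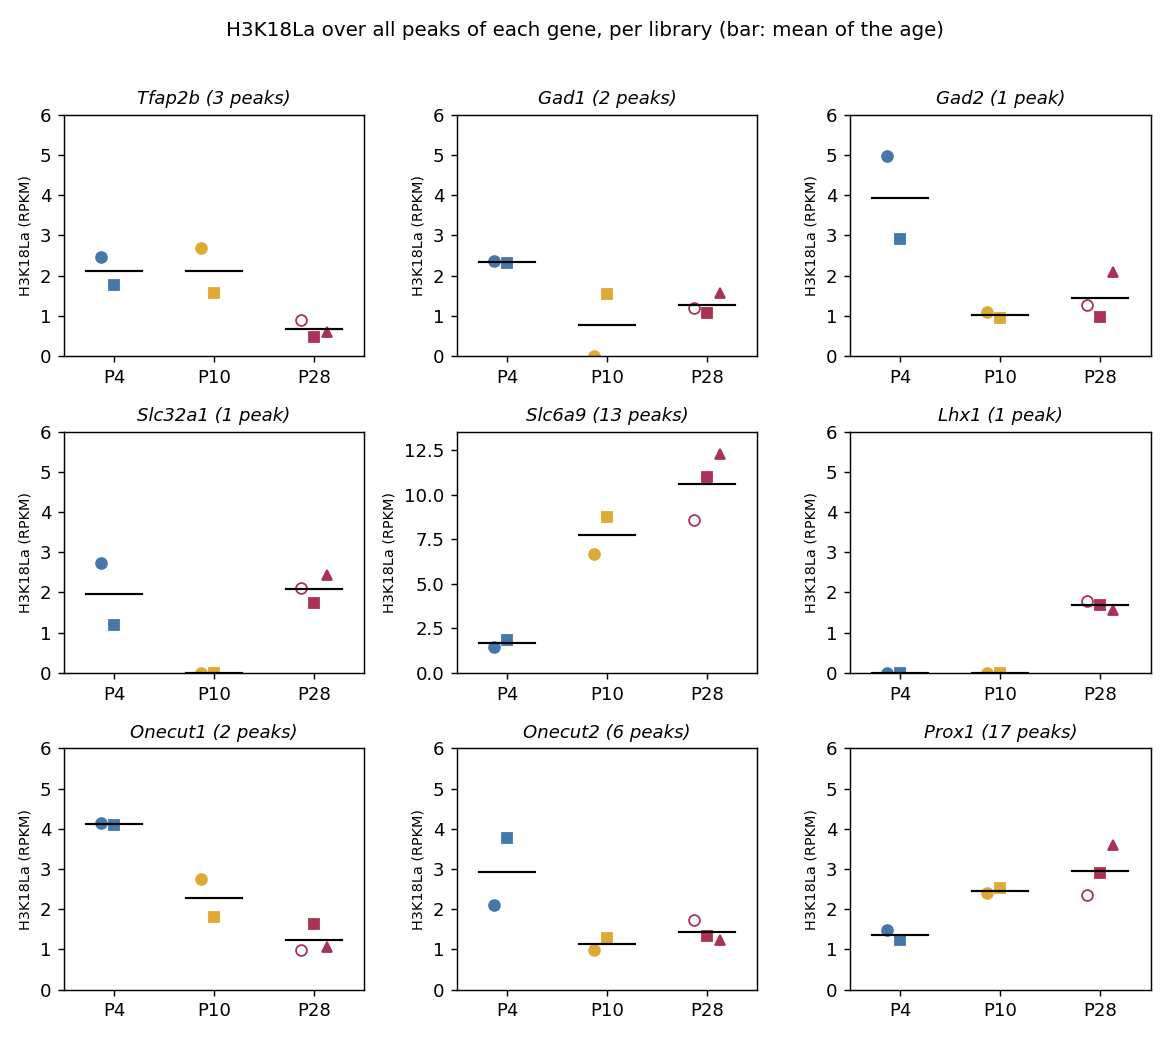
H3K18La in RPKM over all peaks of each of the 9 genes with a peak, by age, with 1 point per library (circle replicate 1, square replicate 2, triangle replicate 3, open circle the batch 2 library) and a bar at the mean. Slc6a9, whose axis is longer, rises from 1.45 and 1.86 RPKM at P4 to between 8.55 and 12.3 at P28, while Onecut1 falls from 4.15 and 4.09 to between 1.00 and 1.64.

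Gene levels were tested with limma in a single fit over all 25400 symbols, with a call at a Benjamini-Hochberg adjusted p under 0.01. From P4 to P28, 2 of the 9 genes were called higher, Slc6a9 and Lhx1, where 33.7% of all symbols were. The only peak of Lhx1 had no read at P4 or P10, so it entered the peak set through P28. Only Onecut1 was called lower in that comparison, where 7.07% of all symbols were. The median log2 change of the 9 genes was -0.56 against 0.76 over all symbols. The split of the calls depended on the scaling. Scaled to the total signal in peaks, which moved the median of all symbols to -0.27, 2 genes were called higher (11.3% of all symbols) and 5 lower (25.3% of all symbols), namely Gad1, Gad2, Onecut1, Onecut2 and Tfap2b. With median centring (median of all symbols 0.16) there was 1 higher and 4 lower, where 20.5% and 16.6% of all symbols were. With limma-voom on the recovered reads (median 1.02) 2 were higher and 3 lower, where 42.4% and 14.9% of all symbols were. Slc6a9 was among the higher and Onecut1 among the lower genes each time. With the replicate number as a block, however, Onecut1 was not called (log2 change -1.16, adjusted p = 0.0331). Its call was also lost in fits that left out a library, given below. From P4 to P10, Slc6a9 was called higher (16.5% of all symbols) and Slc32a1 lower (8.01%), and scaled to the total signal 1 was higher (6.25%) and 5 lower (23.7%). From P10 to P28, Lhx1 was called higher (4.3% of all symbols) and none lower (0.693%). An unadjusted p under 0.05 was found for 3 of the 9 genes, without a share over all symbols to set this against.

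At the level of single peaks, 9 of 46 were called higher at P28 than at P4, against 18.9% of all peaks, and 7 of the 9 belonged to Slc6a9. The others were the peak of Lhx1 and an intron peak of Prox1, and both had no read at P4 or P10. Peaks were called in this time course and merged over the ages. Both therefore entered the set through P28, the age at which they were called higher. Without P4 replicate 1 only 1 of the 9 calls was left (5.21% of all peaks were called higher), and without P4 replicate 2 there were 3 (5.86%), all of them Slc6a9 peaks. Of the 46, 3 were called lower (4.21% of all peaks), 1 each in Onecut1, Onecut2 and Prox1. The median log2 change of the 46 peaks was 0.75, against 0.68 over all peaks. Scaled to the total signal in peaks, 6 were called higher and 9 lower, where 7.17% and 15% of all peaks were. With median centring 5 were higher and 6 lower, where 13.1% and 9.91% of all peaks were, and with limma-voom 11 and 6, where 30.2% and 11.3% were. Promoter peaks were defined from 1000 bases before to 500 after a start site. Among the 10, 1 was called higher, the first Slc6a9 promoter peak, and none lower. An unadjusted p under 0.05 was found for 4 of them, without a share over all promoter peaks to set this against. At the adjusted threshold 31.3% of all promoter peaks were called higher and 0.834% lower, and the median log2 change was 0.42 for the 10 and 1.26 for all. In 18 of the 46 peaks every P28 library lay above every P4 library, where 50.6% of all peaks did. In 11 every P28 library lay below, where 20.7% of all peaks did.

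**Figure D2:**
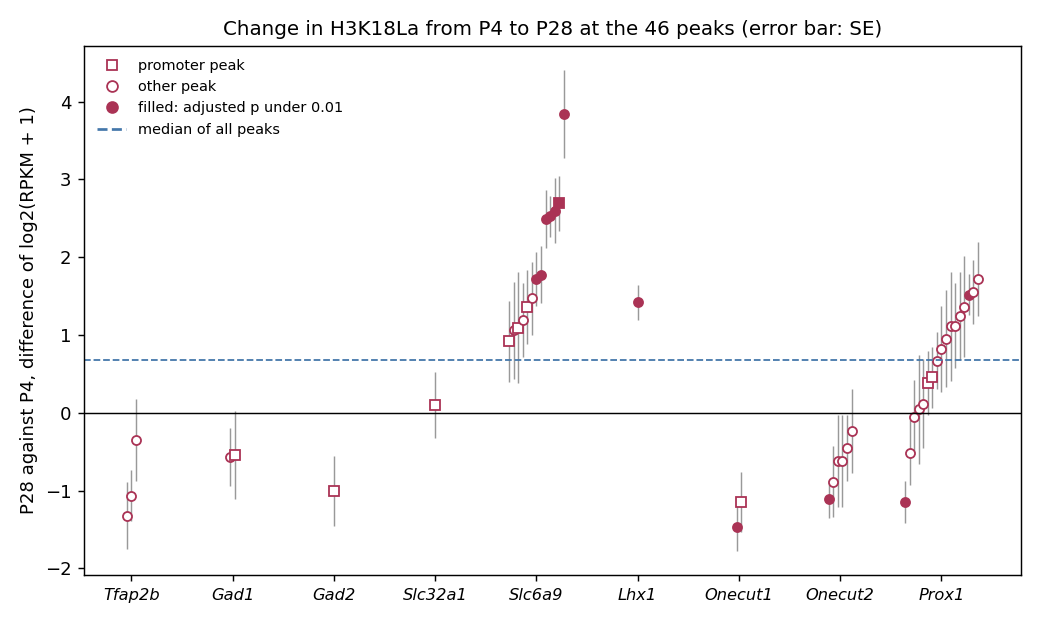
Change in H3K18La from P4 to P28 at each of the 46 peaks by gene, as the difference of log2(RPKM + 1) with its SE, for promoter peaks (squares) and other peaks (circles), filled where the adjusted p was under 0.01. All 13 Slc6a9 points lie above 0, between 0.92 and 3.84, and all points of Tfap2b, Gad1, Gad2, Onecut1 and Onecut2 lie below it.

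Slc6a9 had the largest rise of the 9 genes in the main fit. The change at Lhx1, which had no read at P4, was larger under 2 alternatives. It was 4.15 against 2.61 with a pseudocount of 0.1, and 1.21 against 0.95 scaled to the total signal. The values that follow are those of Slc6a9. Its gene level was 1.45 and 1.86 RPKM at P4, 6.68 and 8.76 at P10, and 8.55, 11 and 12.3 at P28. Both P10 libraries and all 3 P28 libraries lay above both P4 libraries, and the P10 and P28 values overlapped. The level was 6.42-fold higher at P28 than at P4, with a log2 change of 2.12 (SE 0.23, adjusted p = 1.57e-04), and 9.23% of all symbols had a larger change. From P4 to P10 the log2 change was 1.71 (SE 0.25, adjusted p = 0.00121). Within batch 1 the change from P4 to P28 was 2.25 (adjusted p = 8.89e-04). Without either P4 library the call from P4 to P10 was lost (adjusted p = 0.0151 and 0.0109), with log2 changes of 1.60 and 1.82.

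The strongest peak lay upstream of the gene and is the first of the printed sequences (chr4:117829304-117831827, 2524 bases, ending 2679 bases before the annotated start). It had 2.70 and 3.07 RPKM at P4, 16.5 and 18.7 at P10, and 18, 21.6 and 25.1 at P28. Every P10 and P28 library stood above the P4 pair, and the mean was 7.47-fold higher at P28 than at P4 (log2 change 2.53, SE 0.27, adjusted p = 2.05e-04). Next to it, the second upstream peak (chr4:117831841-117832359) had 0 and 1.15 RPKM at P4, 3.48 and 18.2 at P10, and 17.2, 19.1 and 24.3 at P28. P4 was at the floor there with 1 read in all, and against 3 reads per P4 library the P28 level was 6.64-fold higher (log2 change 3.84, SE 0.57, adjusted p = 8.36e-04).

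The promoter peak of Slc6a9 at the first start site (chr4:117834940-117836933) had 1.14 and 1.5 RPKM at P4, 7.24 and 13.8 at P10, and 10.9, 14.9 and 16.6 at P28. The P4 pair was lowest, the later ages overlapped, and the level was 10.7-fold higher at P28 than at P4 (log2 change 2.69, SE 0.35, adjusted p = 4.47e-04) and 8.0-fold higher at P10 (log2 change 2.26, SE 0.38, adjusted p = 0.00252). Another 3 peaks overlapped internal start sites of the gene and did not pass. Between P4 and P28 their log2 changes were 0.92, 1.36 and 1.1, with adjusted p-values of 0.175, 0.0434 and 0.230. The last of them overlapped the start of a transcript with a retained intron. Of the 7 peaks in the gene body outside promoters, 4 were called higher, where 18.9% of all peaks were. These 4 lay in intron 1, in a 5′ untranslated stretch, in intron 5 and in a stretch classed as 3′ untranslated. The last was centred 28.7 kb into the gene of 40.7 kb, and so not at its end. The intron 1 peak had no read at P4 or P10 and 3.24, 6.65 and 5.87 RPKM at P28, so it too entered the set through P28. The peak classed as 3′ untranslated (chr4:117862770-117863614) had 0.54 and 2.12 RPKM at P4 and 10.3, 10.3 and 13.7 at P28.

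All 13 peaks had a positive change from P4 to P28 (median log2 change 1.73), where 66.5% of all peaks did. In 12 every P28 library lay above both P4 libraries, where 50.6% of all peaks did. When libraries were scaled to their total signal in peaks, 2 uncalled promoter peaks turned negative, at -0.19 and -0.061. From P4 to P10, 4 of the 46 peaks were called higher, where 11.4% of all peaks were, and all 4 were Slc6a9 peaks. These were both upstream peaks, the first promoter peak and the peak classed as 3′ untranslated. Without P4 replicate 1, only the first upstream peak was still called, from P4 to P28 and from P4 to P10 (2.59% of all peaks). Without P4 replicate 2, the first upstream peak and the peak classed as 3′ untranslated were still called in both comparisons (2.94% from P4 to P10). The first promoter peak was still called from P4 to P28. The log2 changes of the 7 peaks called from P4 to P28 ran from 1.63 to 3.29 and from 1.66 to 4.39 in these fits, against 1.73 to 3.84 with all libraries. Those of the 4 peaks called from P4 to P10 ran from 1.79 to 2.19 and from 2.33 to 3.21, against 2.26 to 2.66. The upstream pair held 34.9% of the gene's reads in P4 replicate 1 (95% Wilson interval 22.4 to 49.8, 43 reads) and 33.3% in P4 replicate 2 (21 to 48.4, 42 reads). The share was 48.0% in each P10 library and 47.0%, 43.5% and 45.7% at P28, within the P4 intervals. Intervals cover counting error only.

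**Figure D3:**
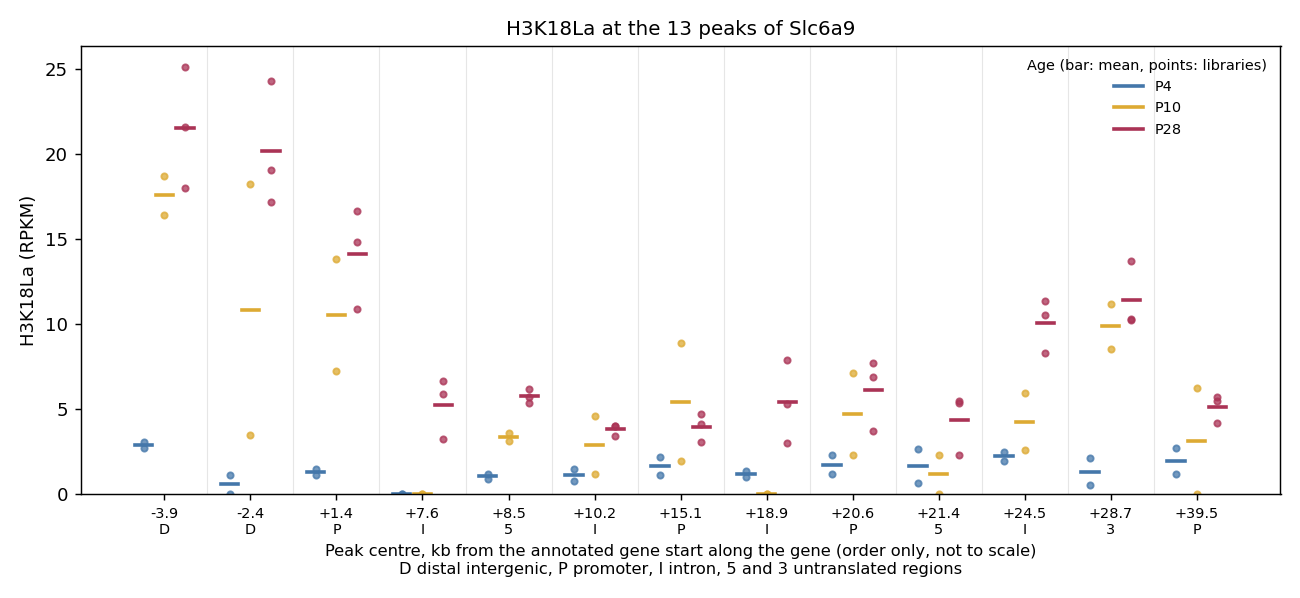
H3K18La in RPKM at the 13 Slc6a9 peaks, ordered by the distance of the peak centre from the annotated gene start in kb, with points for libraries and bars for the mean of each age. The 2 upstream peaks reach 21.6 and 20.2 RPKM on average at P28, the first promoter peak 14.1, and no P4 library exceeds 3.07.

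A further peak inside the annotated span of Slc6a9 carried the symbol of the neighbouring gene Ccdc24 and is therefore not among the 46 (chr4:117869009-117873571). It had 1.59 and 0.92 RPKM at P4, 11.5 and 13.8 at P10, and 14.1, 15.6 and 19.3 at P28. Its later values were again all above the P4 pair (log2 change from P4 to P28 2.95, adjusted p = 1.78e-04).

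None of the genes of GABA synthesis or of vesicular loading was called from P4 to P28. Gad2, which encodes 1 of the 2 glutamate decarboxylases that make GABA, had a single peak at its promoter (chr2:22621924-22623568). Its level was 4.97 and 2.90 RPKM at P4, 1.1 and 0.96 at P10, and 1.28, 0.97 and 2.10 at P28. Both P4 libraries lay above all 5 later ones, and the P28 mean was 2.72-fold lower than the P4 mean. In the fit over genes the log2 change was -1.01 (SE 0.32, adjusted p = 0.0241), and in the fit over peaks, which tests the same values, the adjusted p was 0.0931, so neither passed. Over genes Gad2 was called lower when scaled to the total signal (log2 change -2.22, adjusted p = 0.00135), with median centring (-1.60, adjusted p = 0.00331) and with limma-voom (-1.62, adjusted p = 8.50e-04). From P4 to P10 it was -1.25 (adjusted p = 0.0203 over genes), with 3 reads at P10 in all.

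Gad1, the gene of the other decarboxylase, had 2 peaks. Its promoter peak overlapped the start of a non-coding processed transcript inside the gene and not the RefSeq start. That peak had 2.12 and 2.78 RPKM at P4, 0 and 2.76 at P10, and 1.53, 1.15 and 1.41 at P28. All P28 values lay below both P4 values while P10 spanned the range, and the log2 change from P4 to P28 was -0.54 (SE 0.57, adjusted p = 0.454). The gene level moved by -0.56 (adjusted p = 0.246), and Gad1 was called lower when scaled to the total signal (-1.68, adjusted p = 0.00651).

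Slc32a1, the transporter that loads GABA and glycine into synaptic vesicles, had 1 promoter peak (chr2:158610533-158611029). It had 2.74 and 1.2 RPKM at P4, no read in either P10 library, and 2.11, 1.73 and 2.43 RPKM at P28. P4 and P28 overlapped, with a log2 change of 0.10 (SE 0.31, adjusted p = 0.793 over genes). The difference between P10 and P4 was called over genes (log2 change -1.52, adjusted p = 0.00774), although P10 was at the floor. At the P4 level, 0.54 and 1.24 reads would have been counted there in the 2 P10 libraries, so a lower level at P10 was not detectable at this depth. The call was kept in 2 of the 7 fits that left out a library, and was lost with limma-voom (adjusted p = 0.349). Over peaks the same difference did not pass (adjusted p = 0.0273).

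The AP-2 factors Tfap2a and Tfap2b are transcription factors that amacrine and horizontal cells need to form. A peak in the Tfap2a gene carried the symbol of the predicted gene Gm47061 (chr13:40722651-40723548), and 1 just outside it, 377 bases away, carried that of Gm47067. The first had 2.53 and 1.33 RPKM at P4, 4.02 and 0.88 at P10, and 9.35, 5.48 and 6.15 at P28. Its P28 libraries lay above all 4 earlier ones, and the log2 change from P4 to P28 was 1.45 (adjusted p = 0.0355), which did not pass. Neither peak enters the counts for the 46.

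Tfap2b had 3 peaks and none at a promoter. Its gene level was 2.47 and 1.77 RPKM at P4, 2.68 and 1.56 at P10, and 0.91, 0.49 and 0.60 at P28. All P28 libraries lay below the 4 earlier ones, which overlapped with each other. The P28 mean was 3.19-fold lower than that of P4, with a log2 change of -0.91 (SE 0.30, adjusted p = 0.0292), which did not pass. It was called lower under the same 3 alternatives as Gad2, with log2 changes of -1.93, -1.50 and -1.88 and adjusted p-values of 0.00322, 0.00674 and 6.54e-04. The peak nearest its start, in intron 1 (chr1:19210219-19210894), had 3.36 and 1.77 RPKM at P4, 2.67 and 3.5 at P10, and 0.39, 0.55 and 0.26 at P28 (log2 change from P4 to P28 -1.32, adjusted p = 0.0342). The most distant, 25.5 kb upstream, had 6 reads at P4 and none at P10. It was 1 of 4 peaks called lower at P10 than at P4, where 7.34% of all peaks were. The other 3, in Onecut1, Onecut2 and Prox1, were at the floor at both ages. At the P4 level of the Tfap2b peak, the P10 libraries would have held 0.83 and 1.91 reads. A lower level was therefore not detectable there. Scaled to the total signal, 2 of the 46 peaks were called higher at P10 and 7 lower (4706 and 17156 of all 108253 peaks). With limma-voom 4 were higher and 0 lower (15709 and 100 of all 108253 peaks).

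Onecut1 and Onecut2 are homeodomain factors with a cut domain that act in the formation of horizontal cells, and early ganglion cells express them as well. The Onecut1 gene level was 4.15 and 4.09 RPKM at P4, 2.75 and 1.80 at P10, and 1.00, 1.64 and 1.05 at P28. The 3 ages did not overlap, but P10 was at the floor with 2 and 3 reads, all of them in the promoter peak. The P28 mean was 3.35-fold lower than the P4 mean (log2 change -1.21, SE 0.27, adjusted p = 0.00504), and the call was lost in 5 of the 7 fits that left out a library. Over the 7 the log2 change ran from -1.34 to -1.14 and the adjusted p from 9.27e-04 to 0.0416. Within batch 1 the change was -1.14 (adjusted p = 0.0164). Its promoter peak (chr9:74862043-74862974) had 4.39 and 5.12 RPKM at P4, 3.87 and 2.54 at P10, and 1.41, 2.18 and 1.30 at P28. The ages again did not overlap, but the peak did not pass (log2 change -1.14, SE 0.39, adjusted p = 0.0387). The intron peak of Onecut1 (chr9:74887530-74887911) was called lower, with 4 reads at P4 and 3 reads at P28 in all.

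Onecut2 had 6 peaks, and none of them was classed as a promoter peak. Its gene level was 2.12 and 3.76 RPKM at P4, 0.99 and 1.30 at P10, and 1.72, 1.33 and 1.23 at P28. The P4 pair was highest and the later ages overlapped. The log2 change from P4 to P28 was -0.67 (SE 0.30, adjusted p = 0.0806). Onecut2 was called lower when scaled to the total signal (-1.82, adjusted p = 0.00189) and with median centring (-1.27, adjusted p = 0.00604). All 6 peaks had a negative change from P4 to P28, from -1.11 to -0.23. The only call was at the 3′ untranslated end, where 2 reads at P4 stood against 2 at P28 in deeper libraries.

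Lhx1, a LIM homeodomain factor of horizontal cells, had 1 peak, in its 3′ untranslated region and 5571 bases from its start (chr11:84519525-84519964). No read fell there in any P4 or P10 library, and the P28 libraries had 1.79, 1.68 and 1.57 RPKM from 19 reads. The groups did not overlap and the peak was called higher at P28 than at P4 (log2 change 1.42, SE 0.23, adjusted p = 0.00120). At the P28 level, however, only 1.63 and 1.24 reads would have been counted in the P4 libraries and 0.41 and 0.94 in the P10 libraries. The P28 level is below what 3 reads give at P4, so this depth could not show a rise. The call over genes was lost with median centring and with limma-voom (adjusted p = 0.0150 and 0.0330).

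Prox1, a homeodomain factor of horizontal cells, AII amacrine cells and some bipolar cells, had the most peaks, 2 at promoters, 6 in the gene body and 9 upstream. Its gene level was 1.48 and 1.23 RPKM at P4, 2.40 and 2.52 at P10, and 2.36, 2.90 and 3.61 at P28. Every later library lay above both P4 libraries, and P10 and P28 overlapped. The mean was 2.18-fold higher at P28 than at P4 (log2 change 0.74, SE 0.26, adjusted p = 0.0333), which did not pass, and it turned to -0.32 when libraries were scaled to the total signal in peaks. With limma-voom Prox1 was called higher (log2 change 1.09, adjusted p = 0.00114).

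The 2 promoter peaks of Prox1 were highest at P10. The one at the first start site (chr1:190170357-190170926) had 1.59 and 2.09 RPKM at P4, 9.50 and 6.92 at P10, and 1.38, 3.56 and 3.64 at P28. Both P10 libraries lay above the other 5, from 8 reads in all, and P4 and P28 overlapped. The log2 change from P4 to P10 was 1.69 (SE 0.46, adjusted p = 0.0171) and from P10 to P28 -1.30 (SE 0.42, adjusted p = 0.0633). The other (chr1:190168447-190169469) had 1.33 and 3.5 RPKM at P4, 5.29 and 6.94 at P10, and 3.59, 3.06 and 3.71 at P28. P10 was again above all others, with a log2 change from P4 of 1.13 (adjusted p = 0.0670). None of these passed.

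The upstream Prox1 peaks, between 49.1 and 115 kb before the start, held 71.9%, 74.5% and 78.0% of the gene's reads in the P28 libraries (95% Wilson intervals 63.7 to 78.8, 71.2 to 77.6 and 73.1 to 82.3). Over their summed width they had 1.40 and 1.18 RPKM at P4, 2.19 and 2.69 at P10, and 2.80, 3.58 and 4.66 at P28. Each age stood above the one before it in every library. From P4 to P28, 8 of the 9 had a positive change (median log2 change 1.12), where 66.5% of all peaks did. In 4 every P28 library lay above both P4 libraries, where 50.6% of all peaks did, and the smallest adjusted p was 0.0136. With limma-voom 3 of the 9 were called higher, which is near the 30.2% of all peaks called higher there. The peak with the smallest adjusted p (chr1:190268965-190271297) had 1.75 and 0.77 RPKM at P4, 4.64 and 3.04 at P10, and 4.05, 5.16 and 7.77 at P28. In the gene body, 2 peaks of intron 4 were called, both from few reads. One (chr1:190131479-190132000) had no read at P4 or P10 and 2.51, 1.53 and 1.65 RPKM at P28, and was called higher. At that level 2.18 and 1.66 reads would have been counted in the P4 libraries, fewer than the 3 of the floor, and the call was lost with limma-voom (adjusted p = 0.0251). The other (chr1:190123936-190124547) had 2.23 and 0.98 RPKM at P4 and 0, 0.50 and 0 at P28, from 4 and 5 reads, and was called lower.

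**Figure D4:**
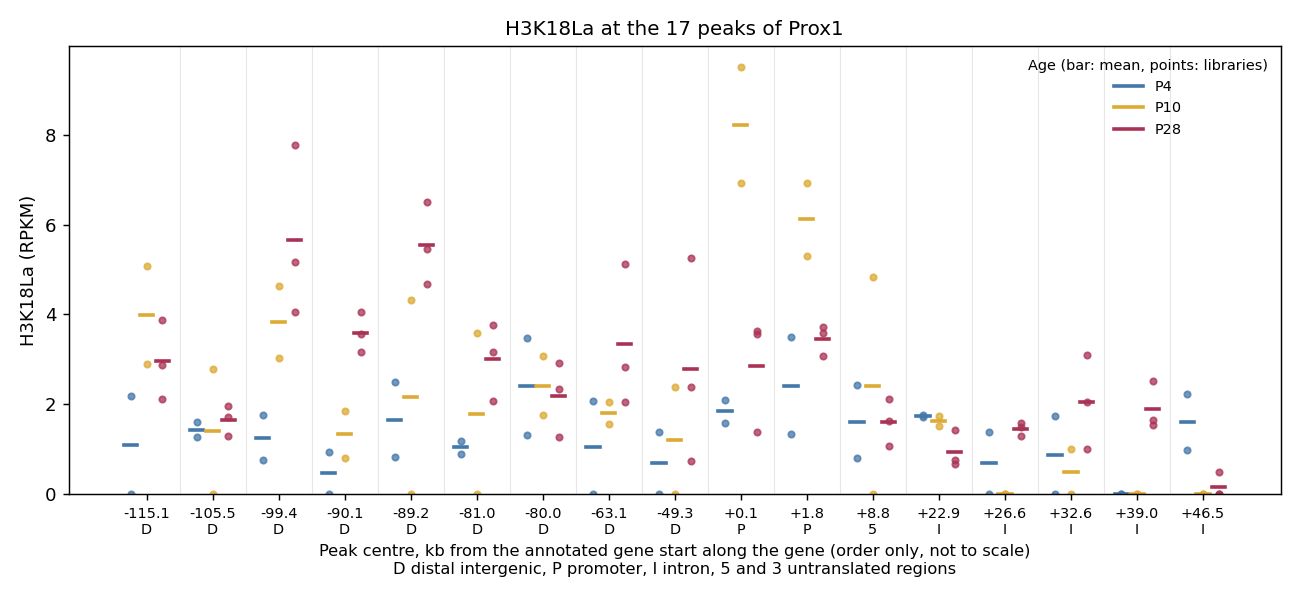
H3K18La in RPKM at the 17 Prox1 peaks, ordered by the distance of the peak centre from the annotated gene start in kb along the gene, with points for libraries and bars for the mean of each age. P10 is highest at both promoter peaks, at 8.21 and 6.11 RPKM on average, while P28 is highest at 7 of the 9 upstream peaks.

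From P10 to P28 none of the 46 peaks was called, and 2 of all 108253 peaks, 0.00185%, were called higher. At an unadjusted p under 0.05 there were 13 among the 46, a count without a share over all peaks to set it against. With a pseudocount of 0.1 in place of 1, 3 of the 46 were called, where 1.23% of all peaks were, and with limma-voom on the recovered reads 2, where 8.26% of all peaks were.

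The 46 peaks had a median width of 689 bases against 757 over all peaks. Of them 10 (21.7%) were promoter peaks against 15.8%, 13 (28.3%) distal intergenic against 32.8%, and 14 (30.4%) in introns against 42.0%. The central 300 bases of the 46 peaks had a median GC content of 54.5% against 50% in all peaks. The GC box, GGGCGG on either strand, was in 9 windows (19.6%) against 11.8%. The AP-2 letters GCCNNNGGC were in 5 (10.9%) against 11.9%, the ONECUT letters ATCAAT in 1 (2.17%) against 7.55%, TATAAA in 1 (2.17%) against 11.1%, and the E-box CANNTG in 36 (78.3%) against 81.4%. In the promoters of 9 member genes (13 starts of 32851 in the RefSeq table, from 250 bases before to 50 after a start), the GC box was in 7 (53.8%) against 35.7%. AP-2 letters were in 1 of the 13 (7.69% against 16.6%), that of Gad2, and ATCAAT in 2 (15.4% against 7.54%). TATAAA was in 2 (15.4% against 13.6%) and CANNTG in 7 (53.8% against 72.3%). Onecut2 was not in that table. A match is a description of the letters and not of binding.

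A wider list held 42 other genes of amacrine and horizontal cells. Of the 34 with a peak, 3 were called higher from P4 to P28 and 2 lower, where 33.7% and 7.07% of all symbols were, and the median log2 change was 0.21 against 0.76. Scaled to the total signal, 1 was higher and 12 lower, where 11.3% and 25.3% of all symbols were, with a median of -0.98 against -0.27. Those higher were Neurod1 (log2 change 2.07), Ebf3 (1.38) and Gjd2 (2.01), which encodes the gap junction protein of AII amacrine cells, and Neurod1 and Gjd2 are also used by photoreceptors or bipolar cells. Those lower were Neurod6 (-1.36) and Prdm13 (-1.18), transcription factors of amacrine subtypes. By group, 2 rose and 2 fell of 19 transcription factors, 0 of 7 transmitter genes and 0 of 4 neuropeptide genes were called, and 1 of 4 calcium binding and gap junction genes rose. From P4 to P10, Neurod1, Ebf1, Ebf3 and Gjd2 were called higher (16.5% of all symbols) and Neurod6 lower (8.01%), and from P10 to P28 Ebf2 was called lower (0.693%).

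Markers of other cells were read over the same ages, against 33.7% of all symbols called higher and 7.07% lower from P4 to P28 and a median log2 change of 0.76. Counts such as 1 of 3 or 1 of 4 lie near the share called higher. For the counts scaled to the total signal the shares were 11.3% higher and 25.3% lower, with a median of -0.27 over all symbols. All 6 rod markers with a peak (of 7, Rom1 had none) were called higher from P4 to P28, with a median log2 change of 2.35, and their summed gene level was 12 and 16.0 RPKM at P4, 104 to 122 at P10 and 83.9 to 113 at P28. Scaled to the total signal 4 of the 6 were called, with a median of 1.18. Of 5 bipolar markers 3 rose, and the sum went from 5.45 and 6.14 RPKM at P4 to between 16.5 and 22.9 at P28, with 1 called when scaled to the total signal (median log2 change 0.043). Of 4 Mueller glia markers 1 rose, Glul, and none when scaled to the total signal, where the median turned from 0.48 to -0.62. Of 3 microglia markers with a peak 1 rose, Cx3cr1, and none with that scaling, and of 3 vascular markers none was called, with 2 lower under that scaling. None of the 4 ganglion cell markers with a peak was called, and their sum was 9.15 and 9.09 RPKM at P4, 2.93 and 7.19 at P10, and 4.50 to 6.56 at P28, with 2 called lower when scaled to the total signal. Of the 4 pigment epithelium markers 2 were called lower, Rpe65 from 2 reads at P4 and 1 at P28 and Tyr from 9 and 7 reads, and neither had a read at P10. Scaled to the total signal 3 were lower, Rpe65, Mitf and Tyr. Of the 3 liver markers Alb and Apoa1 had no peak, while Ttr, which the pigment epithelium expresses as well, had 3 peaks with 17 reads at P4 and 244 at P28. Its level was 1.99-fold higher at P28, the 2 ages did not overlap, and it was not called (log2 change 0.70, adjusted p = 0.0913). The part of these cells in the changes at Slc6a9, Onecut1 and the other genes was not tested.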

How the data were processed

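CUT&Tag for H3K18La was run on 7 mouse retina libraries. Per the study's methods, the authors mapped reads to GRCm38 with nf-core/cutandrun, called peaks with MACS, kept peaks found in at least 2 replicates of an age outside blacklisted regions, merged them over the ages, counted reads with csaw and annotated peaks with ChIPseeker 1.34.1 (submitters' processing notes). The deposited values were RPKM, normalized by the authors from large genomic windows. Their own comparison columns (log2 fold changes, p-values and FDR from edgeR 3.40.2) were not used.

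Reads per peak were recovered from RPKM and peak width, and 100.0% of values in every library were whole reads (tolerance 0.05 reads). The depth was 199970 to 8274373 reads in peaks, so 3 reads at the median width stood for 0.24 to 7.15 RPKM. Groups and batch came from the labels.

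Peaks and gene levels were tested with limma 3.58.1 (R 4.3.3, variance trend) on log2(RPKM + 1), a scale that understates changes of low peaks. Each was 1 fit over all features and libraries, with 3 contrasts and Benjamini-Hochberg adjustment, at 0.01, the study's threshold. Gene levels are over all peaks of a symbol. The procedure was tested on simulated data in which only peaks with a high mean level were changed, so that test does not cover peaks near the floor. Because RPKM was deposited, this log-scale test took the place of the count model in the study's methods, and limma-voom on the recovered reads was an alternative.

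All 10 genes were named, with the promoter peak nearest the start, other called peaks (at most 3 per gene and contrast) and the peak with the highest mean at P4 and P28. Other peaks named were chosen after their values were seen. The members, lists and tests were chosen with earlier results of these data known. Alternatives were the pseudocount, a filter of 10 reads, other scalings, limma-voom, a threshold of 0.05, a replicate block, promoter peaks alone and leaving out each library. Sequences and promoters came from RefSeq on GRCm38, and windows overlapping an annotated untranslated region were not printed.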

Additional observations from a re-analysis of the deposited data

How the results depend on the processing

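The counts of called members, among 46 peaks and 9 genes, moved with the settings. They are counts of members alone, and the share of all features called moved with the settings too. From P4 to P28, 18.9% of all peaks were called higher in the main fit. Without P4 replicates 1 and 2 the shares were 5.21% and 5.86%. Peaks called from P4 to P28 (12) became 19 at a threshold of 0.05 and 1 to 19 when a library was left out, with 1 and 4 without P4 replicates 1 and 2 and 19 without either P10 library. Peaks called from P4 to P10 (8) became 5 with a pseudocount of 0.1, 4 with the read filter, 4 with limma-voom, 13 at 0.05, and 1 to 5 without a library. Peaks called from P10 to P28 (0) became 3 with the pseudocount, 1 with median centring, 2 with limma-voom, 7 at 0.05, and 0 to 6 without a library, the 6 without P10 replicate 2. Genes called from P4 to P28 (3) became 7 scaled to the total signal, 5 with median centring, 5 with limma-voom, 6 at 0.05, 1 on promoter peaks alone, and 2 to 5 without a library. Genes called from P4 to P10 (2) became 6 scaled to the total signal, 1 with limma-voom, 1 on promoter peaks alone, and 0 to 3 without a library, with 0 without either P4 library. Genes called from P10 to P28 (1) became 2 with the read filter, 0 with median centring, 0 with limma-voom, 2 at 0.05, 0 on promoter peaks alone, and 0 to 2 without a library.

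With the replicate number as a block the genes called were 1 from P4 to P10 and 0 from P10 to P28, and the fall at Onecut1 was no longer called (log2 change -1.16, adjusted p = 0.0331). Deviations of same-numbered libraries correlated between -0.001 and 0.047. With a median of 2 reads or fewer per peak at P4 and P10, counting error could hide a pairing. These correlations therefore do not show whether the numbers pair the libraries.

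Slc6a9 was called higher from P4 to P28 under every alternative run, with log2 changes from 0.95 (total signal) to 2.68 (limma-voom). The changes that turned direction were all uncalled. Scaling to the total signal gave, from P4 to P28, -0.998 at Slc32a1 (gene and peak), -0.32 at Prox1 (-0.35 from P4 to P10), -0.19 and -0.061 at the uncalled Slc6a9 promoter peaks, and -0.71 and -0.75 at the Prox1 promoter peaks. Median centring gave -0.50 and -0.42 for the Slc32a1 gene and peak and -0.066 and -0.14 for the Prox1 promoter peaks, and limma-voom gave -0.21 and -0.20 for Slc32a1. Without a library, Slc32a1 from P4 to P28 ranged from -0.28 to 0.48, the second Prox1 promoter peak from -0.017 to 0.93, and Tfap2b from P4 to P10 from -0.28 to 0.25. Lhx1 was not called with median centring or limma-voom (adjusted p = 0.0150 and 0.0330). The call of Slc32a1 from P4 to P10 was kept in 2 of the 7 fits without a library. The causes were not tested.

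Depth limits the low peaks. At the P28 level Lhx1 would give 1.63 reads or fewer in a P4 or P10 library, and 31 of the 46 peaks were at 3 reads or fewer in both P10 libraries, so falls at P10 from low levels were not detectable.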
